A study of Mus musculus with 8 samples.

Results

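The 43 genes described here belong to the p53 pathway (24 genes) or to the sensing and repair of DNA damage (19 genes), and both sets were read apart. They were listed by name, with earlier results of these data known. Each of the 43 matched 1 identifier among the 55359 in the deposited table. The cells were MLO-Y4, a mouse line with features of osteocytes that the labels list as wild type, and 4 libraries came from non-irradiated and 4 from irradiated cells. The irradiated cells received 6 J/cm2 from a pulsed Er:YAG laser at 2940 nm for 1 min, 72 h after seeding and with the culture medium taken off, the emitter standing 25 cm from the bottom of a 35-mm dish. RNA of both groups was taken 6 h after the irradiation and sequenced after poly(A) enrichment. The labels do not say whether the medium of non-irradiated dishes was also taken off, so laser and handling cannot be told apart, and they do not say whether the 4 libraries of a group came from separate cultures, so p-values measure only the spread between these samples. MLO-Y4 is an established line, known to come from a transgenic mouse that carried the SV40 large T antigen, a viral protein that binds p53; the T antigen was not analysed here.

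As background, p53 (gene Trp53) is a transcription factor that is kept scarce by Mdm2, a ubiquitin ligase whose own gene is a p53 target, and that accumulates when kinases such as ATM and ATR signal broken or stalled DNA. It then raises genes that slow the cell cycle, promote cell death or repair DNA. Regulation of p53 is mostly at the protein level, so that the mRNA of its targets is commonly used as a readout. The repair genes encode machinery for double-strand breaks, base damage, bulky lesions and mismatches.

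Some promoters of the p53 set match the sequence that p53 is known to bind, and 4 are shown because 2 belong to genes that fell after irradiation (Ccng1 and Mdm2) and 2 to genes that did not pass the test (Trp53 and Aen). Each is the 250 bases before the RefSeq start on GRCm38.p6, written 5′ to 3′ on the strand of the gene, with matches to the p53 element in capitals. Ccng1 lies at chr11:40755287-40755536 (minus strand), Mdm2 at chr10:117710759-117711008 (minus strand), Trp53 at chr11:69580109-69580358 (plus strand) and Aen at chr7:78895808-78896057 (plus strand).
Ccng1: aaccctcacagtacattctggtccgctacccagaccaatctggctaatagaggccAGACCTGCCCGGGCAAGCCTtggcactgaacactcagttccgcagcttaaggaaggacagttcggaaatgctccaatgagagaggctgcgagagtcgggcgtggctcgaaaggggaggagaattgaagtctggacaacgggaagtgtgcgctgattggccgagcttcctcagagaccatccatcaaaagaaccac
Mdm2: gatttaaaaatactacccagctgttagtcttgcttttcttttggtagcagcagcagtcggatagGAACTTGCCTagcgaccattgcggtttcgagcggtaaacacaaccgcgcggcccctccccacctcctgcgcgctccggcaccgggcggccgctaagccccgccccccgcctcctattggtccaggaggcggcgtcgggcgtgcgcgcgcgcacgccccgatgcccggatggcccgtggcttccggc
Trp53: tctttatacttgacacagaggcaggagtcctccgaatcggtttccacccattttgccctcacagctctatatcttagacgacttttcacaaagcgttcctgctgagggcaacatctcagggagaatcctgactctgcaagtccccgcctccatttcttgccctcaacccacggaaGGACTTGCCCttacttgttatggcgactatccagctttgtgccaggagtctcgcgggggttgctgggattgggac
Aen: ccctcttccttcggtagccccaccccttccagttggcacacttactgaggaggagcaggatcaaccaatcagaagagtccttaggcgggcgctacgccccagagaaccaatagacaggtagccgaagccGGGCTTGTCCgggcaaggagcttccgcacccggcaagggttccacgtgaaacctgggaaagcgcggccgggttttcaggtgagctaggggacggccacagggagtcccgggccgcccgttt
The capitals in Ccng1 are a full element of 20 bases with 1 mismatch, from 195 to 176 bases before the start. Those in Mdm2 (from 186 bases), Trp53 (from 75 bases) and Aen (from 121 bases before the start) are 1 decamer (10 bases), the unit that the full element holds as a pair, without mismatch. The search covered both strands, kept the C at base 4 and the G at base 7 of each decamer, and allowed at most 2 mismatches and a spacer of at most 1 base in a full element. RefSeq windows of 300 bases (250 before and 50 after the start) were found for 35 of the 43 genes, 40 windows in all. Perfect decamers were present in 10 of the 23 windows of the p53 set (9 of its genes), against 8.36% of all 32851 windows. In the repair set 0 of the 17 windows held a decamer. Among genes not shown, Polk, which rose, and Ddit4l, Ei24, Gadd45a and Ppm1d, which did not pass the test, also held such a decamer. In Polk it lay in the window at chr13:96519138-96519437 and not in that at chr13:96542530-96542829. Plk3, which rose, and Eda2r, which fell, held none. The full element was present in 0.682% of all windows and, among the 35 genes with a window, only in Ccng1. The 8 genes without a window were not searched, among them Trp53inp1, Zmat3 and Rad50, which fell. The cAMP response element TGACGTCA was present in 4 of the 40 windows (Brca2, Btg2, Plk2 and Ppm1d) against 1.79% of all, and the cell cycle element TTTGAA in 3 of 40 (Aen, Fas and Gdf15) against 17.9% of all. The CCAAT box was present in 21 of the 40 windows against 37.4% of all, and the AP-1 element TGANTCA in 2 of 40 (Fas and Mdm4) against 7.81%; all motifs were searched on both strands. These matches are letters in a window and say nothing of binding.

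Library totals ran from 43786209 to 51734166 counts. Levels are CPM (counts out of 1000000, scaled by TMM), errors are SD with n = 4 per group, and a positive log2 fold change means higher in irradiated cells. Of the osteocyte markers Sost, Mepe and Fgf23 had 0 counts in all 8 libraries and Dmp1 stayed under the filter, while of 6 tested markers Gja1, Pdpn and Mmp14 rose, Ank and Capg fell and Phex did not pass the test. Over all 15164 tested genes 1247 were higher and 1023 lower (15% called, 8.22% as higher and 6.75% as lower) at an adjusted p under 0.05, from the quasi-likelihood fit of edgeR with the Benjamini-Hochberg method, with a median log2 fold change of -0.0065.

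Among the 42 tested genes of the 43, 3 rose (Plk3, Polk and Ercc1), 7 fell (Trp53inp1, Eda2r, Zmat3, Ccng1, Rad50, Mre11a and Mdm2) and 32 did not pass the test. In the p53 set 2 of 23 rose and 5 fell (30.4% called). In the repair set 1 of 19 rose and 2 fell, 15.8% called, which is near the 15% of all tested genes. The median log2 fold change was -0.065 in the p53 set, with 17 of 23 values negative. In the repair set it was -0.033, with 11 of 19 negative. Over all tested genes 7824 of 15164 values were negative. Trp53inp1 fell 1.6-fold and Plk3 rose 1.49-fold, and the other 8 called changes lay between 1.1-fold and 1.2-fold. The irradiated libraries lay above all non-irradiated ones in 3 tested members and below all of them in 9, against non-overlap in 18.5% of all tested genes. An unadjusted p under 0.05 was found for 14 of the 42 members, against 27.4% of all tested genes. These were 9 of 23 in the p53 set (2 higher and 7 lower) and 5 of 19 in the repair set (2 higher and 3 lower).

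**Figure D1:**
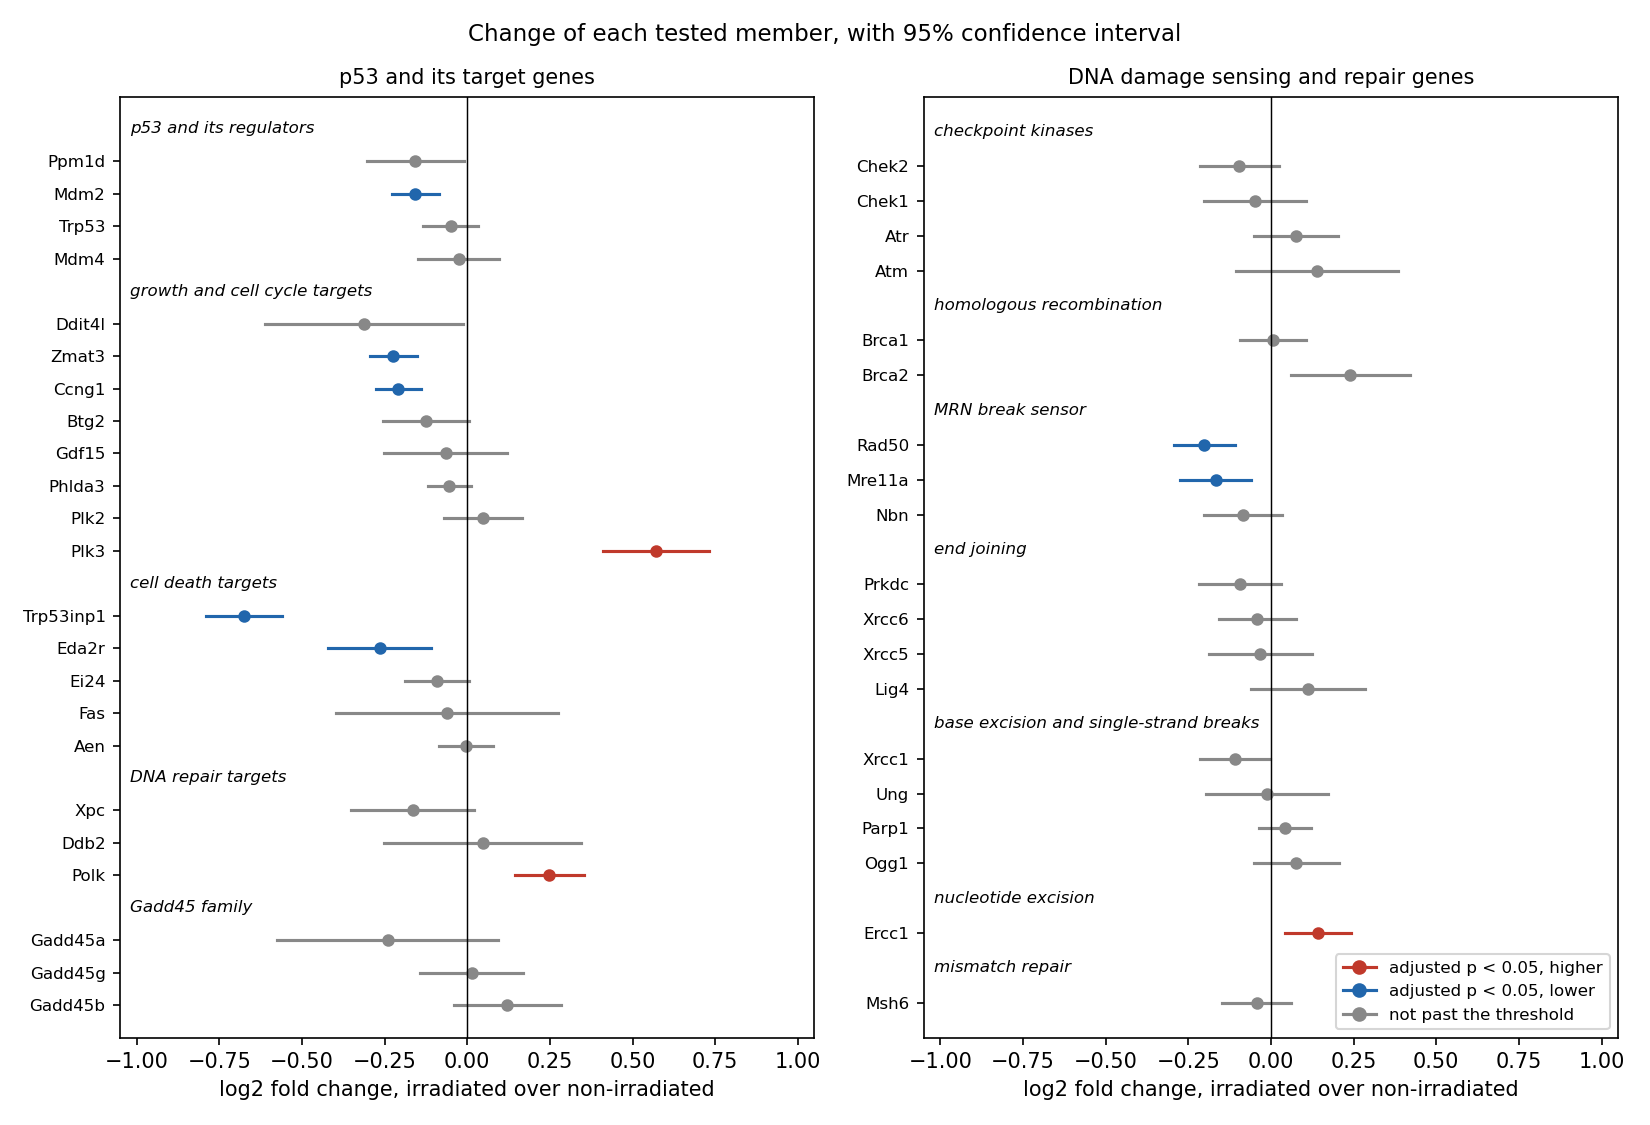
Log2 fold change (irradiated over non-irradiated, horizontal axis) of each of the 42 tested genes, ordered by role, for the p53 set (left) and the repair set (right); points are edgeR estimates and lines 95% confidence intervals. Trp53inp1 at -0.67 and Plk3 at 0.57 stand farthest from 0, and the intervals of most repair genes cross it.

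Per kilobase of merged exons, the non-irradiated level was highest in Phlda3 (128 ± 1.46 CPM per kb) and Ccng1 (125 ± 2.78 CPM per kb), whose ranges of 1 SD overlap, followed by Mdm2 (47.1 ± 2.01 CPM per kb) and Trp53 (35.9 ± 1.08 CPM per kb). Cdkn1a, the p21 cell cycle inhibitor and a classical p53 target outside the 43 genes, stood at 112 ± 4.31 CPM per kb. The lowest tested members were Brca2 (1.4 CPM per kb) and Atr (1.57 CPM per kb), and Perp had 0 counts in all 8 libraries. Where depth was lowest, 3 counts are worth 0.0685 CPM, which would bound Perp if counts were independent. The variance between libraries was 4.21 and 4.32 times the mean (medians over genes with a mean of 5 to 100 counts, non-irradiated and irradiated), so the true bound is higher. Exon lengths come from an annotation of GRCm38, so these levels are approximate.

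p53 itself did not pass the test, and of its regulators only Mdm2 passed it, as lower. Ppm1d had a log2 fold change of the same size (-0.16) with a larger SE (0.0705, against 0.035 for Mdm2). Trp53 (ENSMUSG00000059552.14) gave 139.4, 144.6, 149.5 and 147.2 CPM in the non-irradiated libraries C5 to C8, and 133.8, 149.6, 141.6 and 135.8 CPM in the irradiated libraries L5 to L8. Both groups overlapped, and the highest value was an irradiated one. The log2 fold change of Trp53 was -0.051 (SE 0.04, edgeR adjusted p = 0.46), with a 95% interval of the ratio from 0.911 to 1.02.

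Mdm2 (ENSMUSG00000020184.16) gave 237.1, 226.3, 243.5 and 250.3 CPM in C5 to C8, and 218.9, 213.0, 210.5 and 216.1 CPM in L5 to L8. Every irradiated library lay below every non-irradiated one. The fall was 1.11-fold (log2 fold change -0.16, SE 0.035, edgeR adjusted p = 0.00363). Mdm4, the p53-binding relative of Mdm2, had 78.02 ± 7.88 and 76.63 ± 1.39 CPM (log2 fold change -0.026, edgeR adjusted p = 0.841). Ppm1d, the WIP1 phosphatase that switches the damage signal off, had 25.55 ± 1.88 and 22.92 ± 0.86 CPM (log2 fold change -0.16, edgeR adjusted p = 0.152), and leaving out C6, its lowest non-irradiated library, brought it past the threshold (log2 fold change -0.21, edgeR adjusted p = 0.0422). In these cultures fewer cells with a transcript and less transcript per cell cannot be told apart.

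Of the 8 targets that act on growth and the cell cycle, Ccng1 and Zmat3 fell, Plk3 rose and 5 did not pass the test. Plk3 (ENSMUSG00000028680.15), a stress-responsive polo-like kinase that growth factors also induce, gave 15.76, 15.58, 14.39 and 16.13 CPM in C5 to C8, and 21.66, 21.7, 24.54 and 24.01 CPM in L5 to L8. The groups were far apart relative to their spread, and L7 and L8 were the highest. This was a 1.49-fold rise (log2 fold change 0.57, SE 0.077, edgeR adjusted p = 2.51e-05). Without strand, reads of Plk3 could mix with those of Tctex1d4 on the opposite strand, which covers 3.32% of the exonic bases of Plk3 and had a mean of 0.277 CPM.

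Ccng1 (ENSMUSG00000020326.8), cyclin G1, a regulator of the phosphatase that activates Mdm2, gave 444.2, 443.9, 437.9 and 423.4 CPM in C5 to C8, and 389.8, 391.7, 356.2 and 376.0 CPM in L5 to L8. No irradiated library reached the lowest non-irradiated one. The fall was 1.16-fold (log2 fold change -0.21, SE 0.033, edgeR adjusted p = 0.000153). Zmat3 (ENSMUSG00000027663.13), an RNA-binding zinc finger protein, gave 163.0, 164.7, 161.8 and 160.7 CPM in C5 to C8, and 139.1, 142.6, 141.3 and 133.6 CPM in L5 to L8. Its non-irradiated values lay within a narrow band and all irradiated ones below it. Zmat3 fell 1.17-fold (log2 fold change -0.22, SE 0.034, edgeR adjusted p = 0.000101).

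The other growth targets showed smaller or less precise differences. Phlda3, a repressor of AKT, was listed from 196.9 to 202.1 CPM in non-irradiated and from 187.0 to 194.3 CPM in irradiated libraries. Its groups did not overlap, yet its log2 fold change of -0.055 did not pass the test (edgeR adjusted p = 0.276). Ddit4l, an inhibitor of mTORC1, had a log2 fold change of -0.31 at a low level (7.806 ± 0.46 against 6.278 ± 1.26 CPM, edgeR adjusted p = 0.162). Btg2, an antiproliferative gene that growth factors also induce, gave -0.13 (edgeR adjusted p = 0.205), Gdf15, a secreted stress cytokine, -0.065 (0.712) and Plk2, a polo-like kinase, 0.048 (0.655), all log2 fold changes with edgeR adjusted p. The 95% interval of the Gdf15 ratio ran from 0.84 to 1.09 and that of the Plk2 ratio from 0.953 to 1.12.

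Of the 6 cell death targets, Trp53inp1 and Eda2r fell, 3 did not pass the test and Perp, a membrane protein of epithelial junctions, was under the filter. Trp53inp1 (ENSMUSG00000028211.12), a nuclear and autophagosomal protein that promotes p53-dependent death, gave 88.58, 101.4, 89.48 and 92.57 CPM in C5 to C8, and 61.02, 62.02, 56.58 and 53.37 CPM in L5 to L8. The highest irradiated library lay well under the lowest non-irradiated one. It fell 1.6-fold (log2 fold change -0.67, SE 0.055, edgeR adjusted p = 4.09e-08), the largest change among the 42 tested members, and stood at place 65 of 15164 by p-value.

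Eda2r (ENSMUSG00000034457.11), the receptor of ectodysplasin A2, gave 38.46, 36.02, 31.37 and 31.73 CPM in C5 to C8, and 30.55, 28.53, 29.5 and 25.86 CPM in L5 to L8. The groups did not overlap, but L5 came close to C7. Eda2r fell 1.2-fold (log2 fold change -0.27, SE 0.074, edgeR adjusted p = 0.019), a call lost without C5 (adjusted p = 0.0964) or L8 (adjusted p = 0.0788). Aen, a nuclease induced by p53, had 102.9 ± 2.73 and 102.6 ± 2.88 CPM, and the 95% interval of its ratio ran from 0.943 to 1.06. Ei24, an endoplasmic reticulum protein with a role in autophagy, gave a log2 fold change of -0.091 (edgeR adjusted p = 0.216), its groups apart by less than the rounding, with 66.21 CPM in both C7 and L7. The death receptor gene Fas had 4.61 ± 0.774 and 4.416 ± 0.243 CPM (log2 fold change -0.062, edgeR adjusted p = 0.86).

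**Figure D2:**
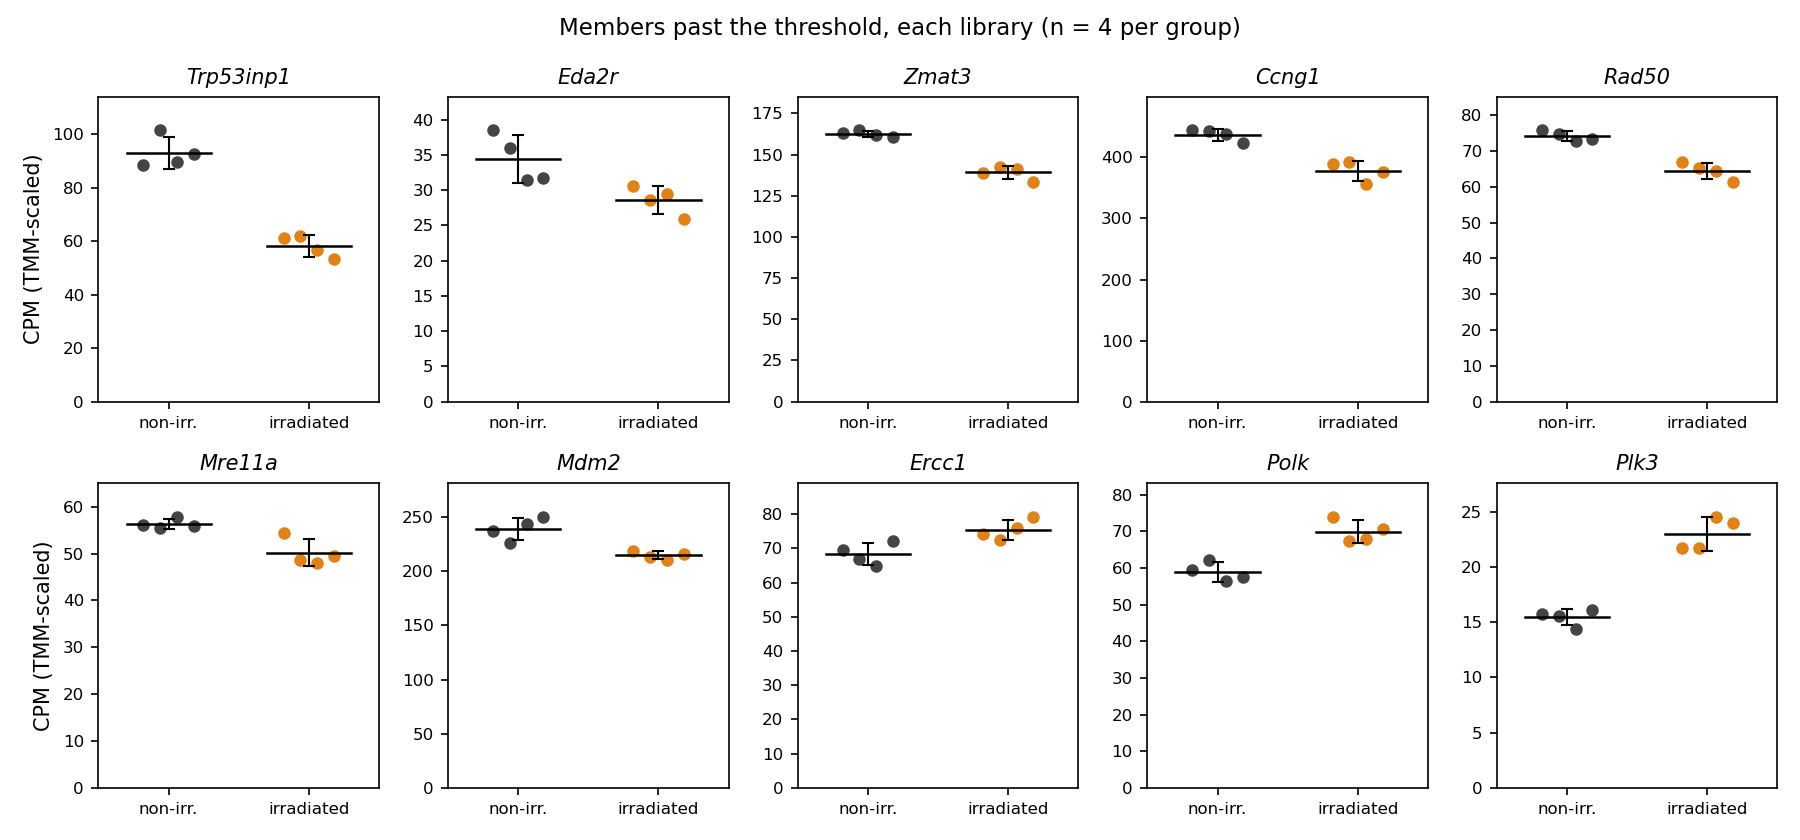
CPM (vertical axes, from 0) of the 10 members past the threshold in each of the 4 non-irradiated (grey) and 4 irradiated (orange) libraries, with the mean and SD as lines and bars. The groups are apart in all 10 panels, widest in Trp53inp1 and Plk3 and narrowest in Mre11a, Ercc1 and Eda2r.

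Of the 3 genes of the p53 set that repair DNA, only Polk passed the test. Polk (ENSMUSG00000021668.16), a polymerase that copies past damaged bases, gave 59.47, 62.24, 56.33 and 57.4 CPM in C5 to C8, and 73.96, 67.27, 67.76 and 70.62 CPM in L5 to L8. Each irradiated library was above all non-irradiated ones. Polk rose 1.19-fold (log2 fold change 0.25, SE 0.049, edgeR adjusted p = 0.00147). Xpc and Ddb2, which recognise bulky lesions for nucleotide excision, had log2 fold changes of -0.17 and 0.047 (edgeR adjusted p = 0.244 and 0.881) at 17.51 ± 1.33 and 5.453 ± 0.632 CPM in non-irradiated cells. Acp2, on the opposite strand, shares 23.8% of the exonic bases of Ddb2, so the Ddb2 level is uncertain.

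None of the 3 Gadd45 genes, small stress proteins that act on MAPK signalling, the cell cycle and repair, passed the test (edgeR adjusted p from 0.343 to 0.933). Gadd45a, the member that p53 raises, had 5.29 ± 0.671 and 4.475 ± 0.667 CPM (log2 fold change -0.24, SE 0.16). Gadd45b had 28.09 ± 3.28 and 30.55 ± 1.73 CPM (log2 fold change 0.12) and Gadd45g 26.58 ± 1.73 and 26.84 ± 2.4 CPM (0.014, and -0.0093 with library totals alone). The 95% intervals of the ratios were 0.671 to 1.07, 0.972 to 1.22 and 0.906 to 1.12, so a rise of Gadd45a above 1.07-fold lay outside its interval. E230016M11Rik, on the opposite strand, shares 19.1% of the exonic bases of Gadd45a, so the Gadd45a level and this bound are uncertain.

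In the repair set, the MRN complex, which senses and trims double-strand breaks, held both genes that fell. Rad50 (ENSMUSG00000020380.17), its long coiled-coil ATPase, gave 75.71, 74.72, 72.68 and 73.22 CPM in C5 to C8, and 66.79, 65.27, 64.34 and 61.38 CPM in L5 to L8. All irradiated values lay below all non-irradiated ones. Rad50 fell 1.15-fold (log2 fold change -0.2, SE 0.044, edgeR adjusted p = 0.00362).

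Mre11a (ENSMUSG00000031928.16), the nuclease of the complex, gave 56.0, 55.39, 57.88 and 55.83 CPM in C5 to C8, and 54.37, 48.69, 48.09 and 49.43 CPM in L5 to L8. The groups did not overlap, with L5 close to the non-irradiated values. The fall of 1.12-fold (log2 fold change -0.17, SE 0.051, edgeR adjusted p = 0.0331) was lost without any one of C5, C7, C8, L6, L7 and L8 (adjusted p from 0.064 to 0.116). Nbn, the third subunit, had 47.78 ± 2.43 and 45.05 ± 2.43 CPM, a log2 fold change of -0.085 (edgeR adjusted p = 0.363). Ankrd49, on the opposite strand, shares 2.6% of the exonic bases of Mre11a and had a log2 fold change of 0.15 (edgeR adjusted p = 0.202).

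Ercc1 (ENSMUSG00000003549.10), a subunit of the nuclease that cuts beside bulky lesions, was the repair gene that rose. It gave 69.63, 66.86, 64.85 and 72.2 CPM in C5 to C8, and 74.36, 72.45, 75.88 and 79.29 CPM in L5 to L8. The groups were apart, though L6 lay next to C8. The rise was 1.10-fold (log2 fold change 0.14, SE 0.047) and stood at the threshold (edgeR adjusted p = 0.0492). It was lost without C5, C6, C7, L5, L7 or L8 (adjusted p from 0.0712 to 0.157), with library totals alone (0.0944), with limma-voom (0.0588) and with a filter of 1 count (0.0563). Cd3eap, on the opposite strand, covers 3.41% of the exonic bases of Ercc1 and had a log2 fold change of 0.16 (edgeR adjusted p = 0.128).

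The 4 checkpoint kinases did not pass the test. Atm, which answers double-strand breaks, gave 77.62, 98.65, 74.44 and 70.07 CPM in C5 to C8, and 92.72, 83.81, 93.91 and 82.89 CPM in L5 to L8. A single non-irradiated library, C6, lay above all others, and the remaining 3 lay below every irradiated one. The log2 fold change of Atm was 0.14 (SE 0.106, edgeR adjusted p = 0.468), and 0.25 without C6 (adjusted p = 0.00208). Atm passed the threshold in only 1 of 15 alternatives, with adjusted p up to 0.703. Leaving out C6, which also brought Ppm1d and Brca2 past the threshold, raised the calls over all tested genes. They became 1501 higher and 1172 lower, against 1247 and 1023, the most without any single library. Atr, which answers stalled forks, and the kinases Chek1 and Chek2 below Atr and Atm had log2 fold changes of 0.075, -0.049 and -0.096 (edgeR adjusted p = 0.476, 0.743 and 0.303).

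The recombination genes Brca1 and Brca2 differed in their estimates. Brca1 had 67.95 ± 1.11 and 68.23 ± 3.86 CPM, a ratio with a 95% interval from 0.936 to 1.08. Brca2, a mediator of homologous recombination, gave 20.15, 21.64, 17.76 and 17.05 CPM in C5 to C8, and 24.95, 20.89, 23.29 and 21.34 CPM in L5 to L8. Both L6 and L8 lay below C6, the highest non-irradiated library, so the groups overlapped. Its log2 fold change of 0.24 (SE 0.086) missed the threshold in the main test (edgeR adjusted p = 0.0685) and passed it with DESeq2 (adjusted p = 0.0499) and without C6 (edgeR adjusted p = 0.0194). Whether the changes of Brca1 and Brca2 differ was not tested.

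End joining, base excision and mismatch repair held no called gene. Among the end-joining genes the log2 fold changes were -0.033 for Xrcc5 and -0.041 for Xrcc6, the Ku subunits that bind broken ends, -0.093 for Prkdc, the kinase they recruit, and 0.11 for Lig4, the ligase (edgeR adjusted p from 0.341 to 0.839). Parp1, which detects single-strand breaks, had 112.8 ± 1.8 and 116.1 ± 4.48 CPM (log2 fold change 0.042, edgeR adjusted p = 0.532). Its scaffold partner Xrcc1 had a log2 fold change of -0.11 (unadjusted p = 0.0436 in edgeR, adjusted p = 0.167). The glycosylases Ogg1 and Ung, which remove oxidised guanine and uracil, gave 0.077 and -0.011, and Msh6, which recognises mismatches, -0.043 (edgeR adjusted p from 0.469 to 0.959). For Parp1, Xrcc1, Ogg1 and Msh6 the 95% intervals lay within ratios of 0.863 and 1.15. That of Ung ran from 0.874 to 1.13. Camk1, on the opposite strand, shares 10.6% of the exonic bases of Ogg1.

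**Figure D3:**
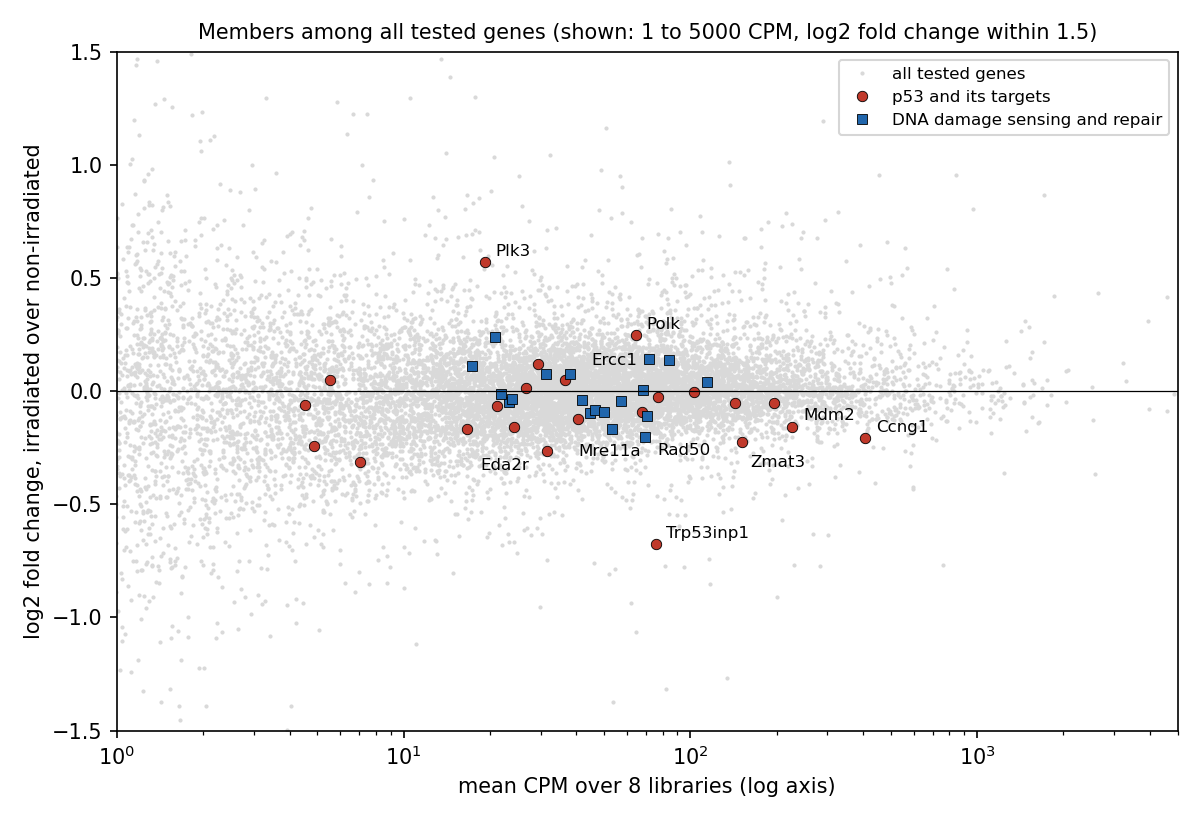
Log2 fold change (vertical axis) against mean CPM over the 8 libraries (horizontal log axis) for the 12501 of 15164 tested genes that fall within the axes (light grey), with genes of the p53 set (red circles) and the repair set (blue squares). The members past the threshold are named; Trp53inp1 and Plk3 lie outside the dense band, and the others at its edge or within it.

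Of 18 tested genes linked to p53 outside the 43, 1 rose and 2 fell (16.7% called, near the 15% of all tested genes). Their median log2 fold change was -0.077, with 13 of 18 values negative, beside -0.0065 over all tested genes. An unadjusted p under 0.05 in edgeR was found for 11 of the 18 (2 higher and 9 lower), against 27.4% of all tested genes. Sesn1, a sestrin that restrains mTORC1, gave 23.17, 23.39, 26.43 and 30.21 CPM in C5 to C8, and 15.87, 19.28, 17.75 and 15.68 CPM in L5 to L8. Its groups were well apart, and it fell 1.51-fold (log2 fold change -0.59, SE 0.092, edgeR adjusted p = 0.000142). Psrc1, a spindle protein, fell (log2 fold change -0.21, edgeR adjusted p = 0.00146), and Epha2, an ephrin receptor that MAPK signalling also raises, rose 1.58-fold from 375.5 ± 26.6 to 592.0 ± 23.0 CPM (edgeR adjusted p = 3.25e-08). Cdkn1a gave 382.1, 387.3, 407.8 and 413.6 CPM in C5 to C8, and 365.9, 379.4, 396.7 and 385.8 CPM in L5 to L8. These groups overlapped (log2 fold change -0.058, SE 0.034, edgeR adjusted p = 0.279), and the 95% interval of the ratio ran from 0.915 to 1.01.

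Of 65 tested repair and checkpoint genes outside the 43, 2 rose and 4 fell (9.23% called, beside 15% of all tested genes), with a median log2 fold change of 0.006. Ercc6, the Cockayne syndrome B protein of transcription-coupled repair, rose from 29.4 ± 3.13 to 37.3 ± 1.58 CPM (log2 fold change 0.35, edgeR adjusted p = 0.00198). H2afx, the histone variant marked at breaks, also rose (log2 fold change 0.22, edgeR adjusted p = 0.00111). Those that fell included Mpg, a glycosylase for alkylated bases, and Apex1, the endonuclease of base excision (log2 fold changes -0.22 and -0.16, edgeR adjusted p = 0.023 and 0.0392).

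**Figure D4:**
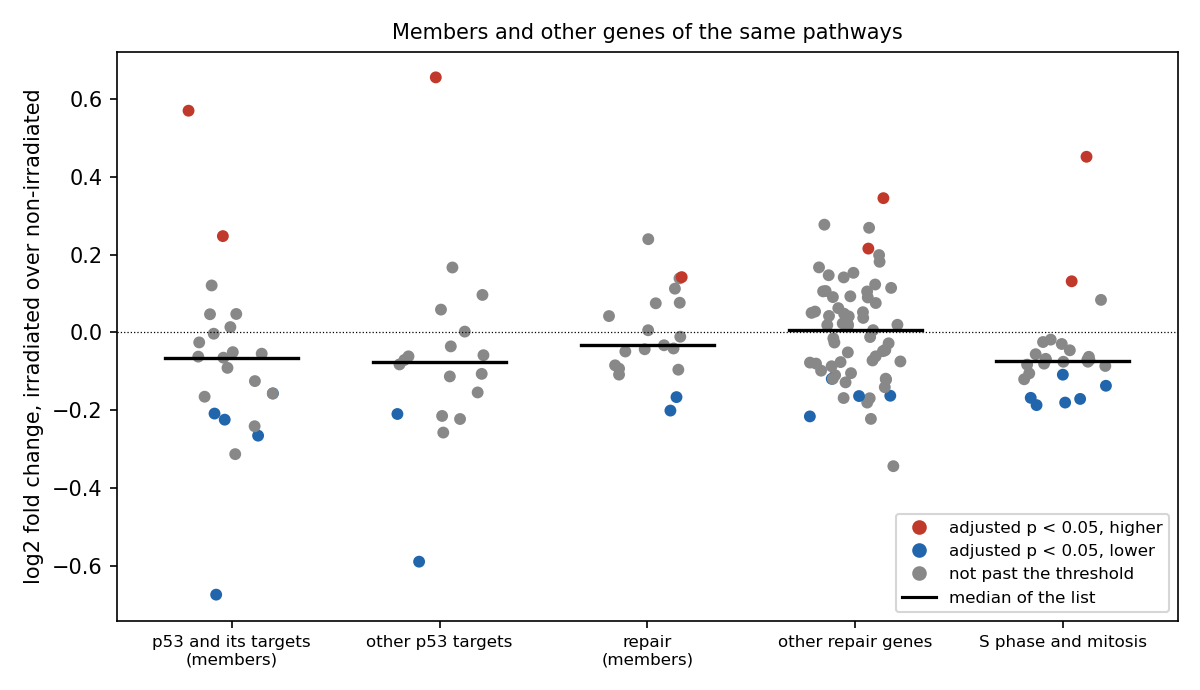
Log2 fold change (vertical axis) of each tested gene in the 2 sets described here and in lists of other genes. These are other genes linked to p53 (labelled other p53 targets), other repair genes and genes of S phase and mitosis. Red and blue points passed the threshold and black lines are medians. The medians are -0.065, -0.077, -0.033, 0.006 and -0.073 from left to right in the order p53 set, other p53 targets, repair set, other repair genes and S phase and mitosis.

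Several repair genes are expressed most in dividing cells, so markers of division were read beside them. Of 26 genes of S phase and mitosis 2 rose (Rrm2, log2 fold change 0.45, and Ccne1, 0.13) and 6 fell, with the largest falls in Cdc20 (-0.19), Cenpf (-0.18) and Ccna2 (-0.17). This is 30.8% called beside 15% of all tested genes, and 23 of the 26 log2 fold changes were negative (median -0.073). The summed level was 5520 to 5640 CPM in non-irradiated and 5500 to 5640 CPM in irradiated libraries, but Rrm2, a subunit of ribonucleotide reductase, alone rose from 701.5 to 959.9 CPM. Without Rrm2, a sum added after seeing the data, the other 25 genes came to 4830 to 4940 CPM in non-irradiated and 4590 to 4650 CPM in irradiated libraries, lower in all 4. The part of this difference in the results on repair genes was not tested. Blood cell markers summed to 30.6 to 35.6 and 48.3 to 50.9 CPM, with Csf1r (log2 fold change 0.88) and Cd14 (0.49) higher and the defining Ptprc, Adgre1 and Itgam at 0 counts in all 8 libraries; their part in the results was not tested. Endothelial markers summed to at most 0.915 CPM, with Cdh5, Kdr and Emcn at 0, and epithelial markers to at most 0.12 CPM, with Epcam, Cdh1, Krt8 and Krt5 at 0.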

How the data were processed

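The deposited table holds whole-number estimated counts per gene, not normalized by the authors, for 4 libraries per group. StringTie 2.1.7, HISAT2 2.2.1, Trimmomatic 0.39, FastQC 0.11.9, DESeq2 1.32.0 and the build GRCm39 come from the submitters' processing notes; no source used here gives their order, the annotation or any use of strand. Columns (numbered 5 to 8) match no sample title and were tied to groups only. Identifiers were named from GENCODE M21 (52083 of 55359), which describes GRCm38 and gave exon lengths and overlaps.

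Genes were kept by filterByExpr (minimum count 10), scaled by TMM and tested with edgeR 4.0.16 in R 4.3.3 (robust quasi-likelihood fit on group alone) over 15164 genes, with Benjamini-Hochberg adjustment. The SE is the log2 fold change over the root of F. Alternatives used DESeq2 1.42.0, limma 3.58.1, other scalings, a filter of 1 count, a block, counts divided by 4 and each library left out. The members and lists were chosen with earlier results of these data known, and the p53 element was defined with promoters in view; 1 repair name matched no symbol. Values in every library were to be given for members past the threshold, Trp53 and Mdm2; Atm, Brca2, Cdkn1a and Sesn1 were added after their values were seen. From the other lists the 3 largest rises and falls past the threshold were named, and always Cdkn1a; 1 of these genes is not reported here.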

Additional observations from a re-analysis of the deposited data

Results flagged for a closer look

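In 3 of 84 sets of 4 libraries (42 tested members in each of 2 groups), 1 library stood apart from its group by Dixon's criterion, which chance meets in about 1 of 20 sets. Ppm1d was at 22.8 CPM in C6, against 26.2 to 26.8 CPM in the other non-irradiated libraries. Ogg1 was at 28.2 CPM in C7, against 31.3 to 31.7 CPM in the other non-irradiated ones. Xpc was at 13.5 CPM in L6, against 16.1 to 16.6 CPM in the other irradiated libraries.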

How the results depend on the processing

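In the p53 set, 2 members were higher and 5 lower under each of the 7 alternatives that kept all libraries, and 2 higher and 4 to 6 lower when each library was left out in turn. The repair set held fewer stable calls. Its count of higher members was 1, and became 0 with library totals alone, with a filter of 1 count, with limma-voom and with the replicate block, 2 with DESeq2, and 0 to 2 without single libraries. Its count of lower members was 2, and became 1 with the replicate block and 1 to 2 without single libraries. Mdm2, Ccng1, Zmat3, Plk3, Trp53inp1, Polk and Rad50 kept their calls in all 15 alternatives, with adjusted p up to 0.0237. Signs turned only in members not past the threshold. Aen was 0.00249 with counts divided by 4 and -0.0181 to 0.0146 without single libraries, Gadd45g was -0.00934 with library totals alone and -0.0342 to 0.0726 without single libraries, and Brca1 was -0.0171 and -0.0178 to 0.0481. Without single libraries the log2 fold change ran from -0.0902 to 0.0233 for Mdm4, -0.154 to 0.0333 for Fas, -0.0217 to 0.108 for Ddb2, -0.0821 to 0.0025 for Chek1, -0.0792 to 0.00503 for Xrcc5 and -0.0626 to 0.0593 for Ung; the cause was not tested. The median of the p53 set stayed between -0.104 and -0.0615 without single libraries, and that of the repair set between -0.0494 and 0.00503. Libraries with the same column number showed no correlation of their deviations from the group mean (from -0.0459 to 0.00144). The labels do not say whether these numbers mark pairs. These correlations weigh all genes alike, so they cannot show a pairing that affects few genes. With the block 1757 genes were called against 2270. Mre11a (edgeR adjusted p = 0.0652) and Ercc1 (0.0661) then lost their calls, while no other member changed its call.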
